A study of Mus musculus with 12 samples.

Results

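The genes examined were 9 members of the S100, annexin and galectin families and their partner Ahnak, which are linked to memory T cells: S100a4, S100a6, S100a10, S100a11, Anxa1, Anxa2, Lgals1, Lgals3 and Ahnak. For each gene the probe was chosen by measured intensity, as the brightest one well above background on at least 2 of 12 arrays, and all 9 had such a probe among the 25738 features tested. Intensity and detection were read on the same 12 arrays, so they describe the members and test nothing. At the edge of that rule, the Anxa1 probe was well above background on 4 arrays and was kept, while the other Anxa1 probe was well above background on 0 arrays and was not. The members themselves were chosen with earlier results of these data known.

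The study measured mouse CD8+ T cells on 12 Agilent 1-colour arrays, from female C57BL/6 mice. Total CD8+ T cells of mesenteric lymph nodes (MLN), the nodes of the gut, came from uMT, AID KO and wild type (WT) mice on 1, 1 and 2 arrays, and total CD8+ T cells of peripheral lymph nodes (PLN) from uMT, AID KO and WT mice likewise on 1, 1 and 2 arrays. Naive PLN CD8+ T cells, purified as low in CD44, were divided by Sca-1 into Sca1p and Sca1m fractions (taken to mean with and without surface Sca-1), with 1 array each from uMT and AID KO mice and no WT array. uMT mice cannot make the membrane-bound mu heavy chain and so lack mature B cells, and AID is the deaminase that B cells need for class switching and somatic hypermutation. Both knockouts are known as germline alleles, so neither is restricted to the T cells measured. No age, treatment or animal count was given in the labels, and the submitters describe the design as without replicates, so each p-value measures departure from an additive fit and may reflect technical spread.

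S100 proteins are small calcium-binding proteins that work as dimers. S100a10 pairs with annexin A2, a protein that binds membrane phospholipids when calcium is present, and Ahnak is a very large scaffold that binds this complex. Annexin A1 is known as a mediator that dampens inflammation, and galectin-1 and galectin-3, encoded by Lgals1 and Lgals3, bind beta-galactoside sugars on surface glycoproteins, including those of T cells. Transcripts of several of these genes are known to be more abundant in antigen-experienced CD8+ T cells than in naive ones.

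S100a4, S100a6 and Anxa1 were the members whose values on all 4 MLN arrays lay below those on all 4 PLN arrays, so their promoters are shown here. The sequences are from RefSeq on GRCm38.p6, cover 250 bases before and 50 bases after the gene start, and read 5′ to 3′ along the gene's strand. RefSeq promoters matched 7 of the 9 members. Capitals mark matches, on either strand, to any of these motifs: TATAAA for the box of that name; TGANTCA for AP-1; TGTGGT for RUNX factors; CACACCC for KLF factors; AGGTGT for T-box factors; CCAAT for the box of that name; and CCGGAAG for ETS factors. No matches overlapped in the printed promoters.
S100a4, chr3:90603520-90603819, plus strand: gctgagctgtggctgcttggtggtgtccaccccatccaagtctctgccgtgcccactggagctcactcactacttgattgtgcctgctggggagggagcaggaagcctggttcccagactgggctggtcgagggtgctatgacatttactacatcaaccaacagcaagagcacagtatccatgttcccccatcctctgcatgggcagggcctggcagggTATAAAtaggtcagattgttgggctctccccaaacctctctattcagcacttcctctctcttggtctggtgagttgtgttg
S100a6, chr3:90612644-90612943, plus strand: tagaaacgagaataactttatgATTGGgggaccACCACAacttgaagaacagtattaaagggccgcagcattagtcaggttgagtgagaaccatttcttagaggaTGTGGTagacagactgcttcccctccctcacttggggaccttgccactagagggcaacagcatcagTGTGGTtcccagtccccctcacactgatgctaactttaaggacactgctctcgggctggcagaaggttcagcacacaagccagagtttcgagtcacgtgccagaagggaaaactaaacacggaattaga
Anxa1, chr19:20390622-20390921, minus strand: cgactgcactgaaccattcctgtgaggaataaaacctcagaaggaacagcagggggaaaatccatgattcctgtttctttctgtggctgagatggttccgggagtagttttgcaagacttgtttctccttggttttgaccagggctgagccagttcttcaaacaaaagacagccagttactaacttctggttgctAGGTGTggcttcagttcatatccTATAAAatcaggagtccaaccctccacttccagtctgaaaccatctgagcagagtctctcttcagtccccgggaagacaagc

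The TATAAA motif began at position -31 in S100a4 and at position -32 in Anxa1, counted from the gene start, and S100a6 held no match to it. Across all 32851 promoters of this length, 13.6% held it. The RUNX motif, on either strand, occurred at 3 places in S100a6, first base at -217, -145 and -79, and 16.8% of all promoters held it. S100a6 also held the CCAAT box on the minus strand at -228 (37.4% of all promoters), and Anxa1 held the T-box motif at -55 (13.7% of all promoters). No motif searched was matched in all 3 promoters. Among the other members with a promoter, the AP-1 motif was matched at -136 and -38 in S100a11 and at -95 in Anxa2, against 7.81% of all promoters. These matches describe letters in these windows only.

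Levels are given as log2 of the processed intensity minus the array's 75th percentile, so 0 is the level of that percentile and 1 unit is a doubling. The 12 arrays had 50.1% to 56.8% of spots well above background and 75th percentiles of 303.1 to 538.6 intensity units, and 0 spots were saturated. Correlations between arrays were 0.978 to 0.992 among total cells and 0.982 to 0.990 among naive cells. WT arrays of the same node differed by a median of 0.29 in MLN and 0.27 in PLN over all features. The number of arrays limits the precision. All 8 CD8 T cell markers were well above background on all 12 arrays. Of 7 listed B cell markers 4 were tested and 2 to 4 of them were well above background per array, with summed levels (in units of the array's 75th percentile) of 7.35 to 8.76 in MLN and 6.09 to 10.1 in PLN total cells. Of 7 macrophage and monocyte markers 4 were tested and 2 to 4 were well above background, with sums of 3.23 to 5.29 in MLN and 2.57 to 5.12 in PLN. Of 7 neutrophil markers 3 were tested and 2 or 3 were well above background, with sums of 130.8 to 180.4 in MLN and 134.5 to 192.7 in PLN, nearly all of it from Csf3r (mean level 7.29 in both nodes). Their part in the members' levels was not tested. Among markers not tested, Ms4a1 of B cells and S100a9 of neutrophils were well above background on 1 array each, and Lyz2 and Adgre1 of macrophages on 0 arrays. Ly6a, which encodes Sca-1, was at 4.41 and 3.94 on the Sca1p arrays and 0.57 and 0.43 on the Sca1m arrays.

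**Figure D1:**
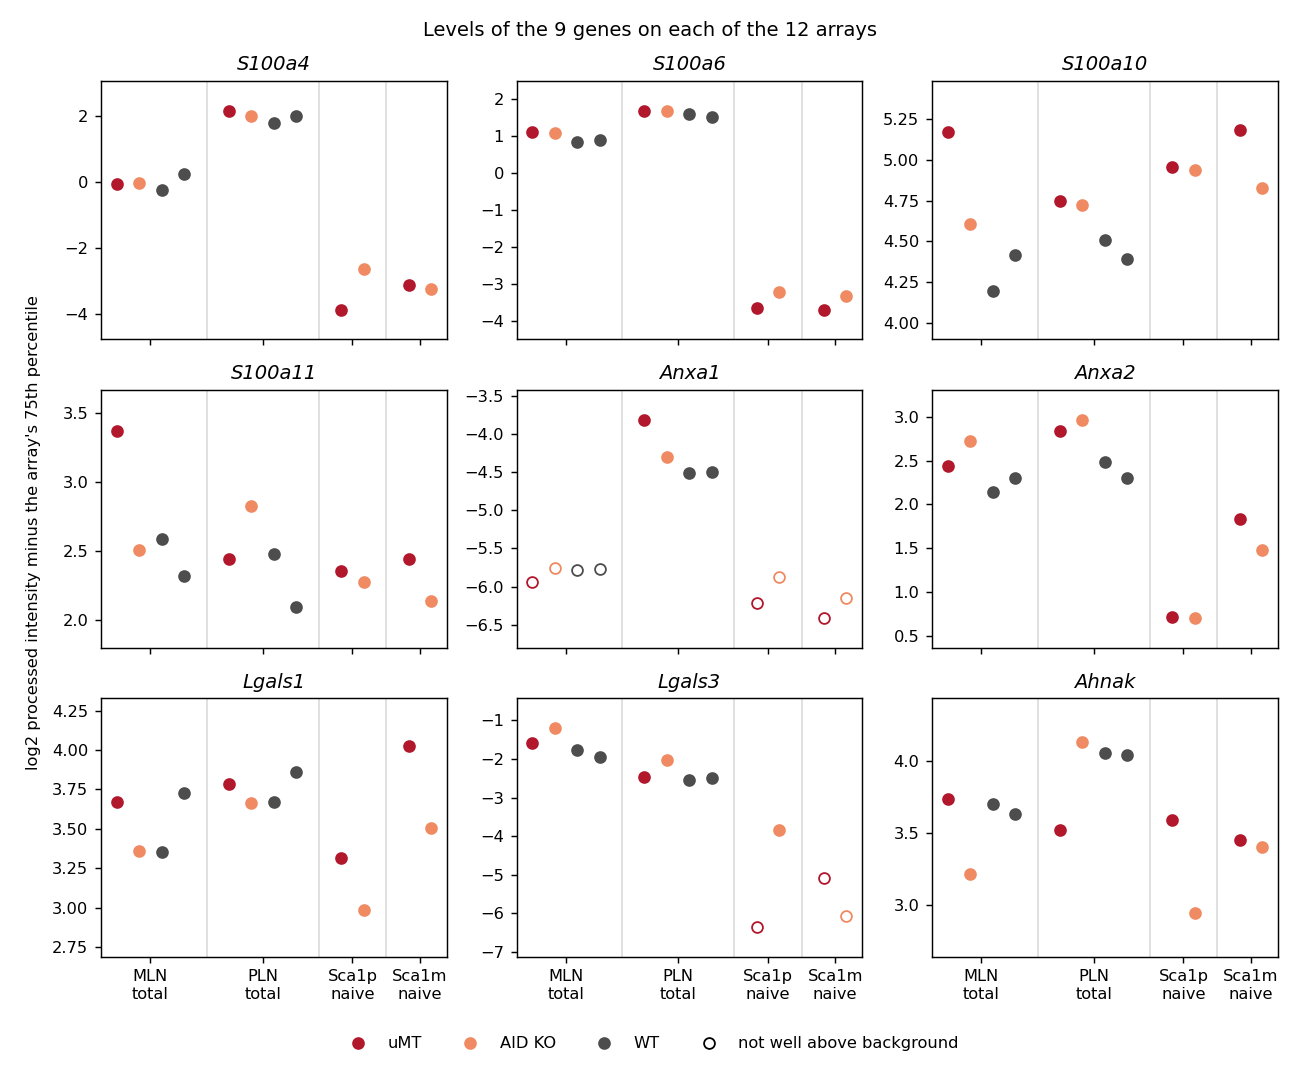
Level of each of the 9 genes on each array, as log2 processed intensity minus the array's 75th percentile, with an axis of its own for each gene. Points are single arrays, coloured by genotype, and open points were not well above background. S100a4, S100a6 and Anxa1 are lower on all 4 MLN arrays than on all 4 PLN arrays, with open points for Anxa1 in MLN, Lgals3 is higher there, and S100a4 and S100a6 are lowest on the 4 naive arrays.

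The first comparison asked how total CD8+ T cells of MLN differed from those of PLN. S100a4 was lower in MLN cells by a difference of -2.02 ± 0.22 on the log2 scale and S100a6 by -0.64 ± 0.07 (± is the standard error of the fit), but both narrowly missed the threshold of 0.05 (limma, adjusted p = 0.0628 and 0.0555). Anxa1 was well above background on all 4 PLN arrays and on 0 of the 4 MLN arrays, so the size of its difference was not measured, and its adjusted p was 0.0376. Lgals3 was higher in MLN, at 0.76 ± 0.51 (adjusted p = 0.746). Thus 1 of 9 members, Anxa1, passed, while 0.120% of all features passed (31 of 25738). The Anxa1 probe was kept for testing through the PLN arrays alone, so nothing is read from this count, and of the other 8 members 0 passed. The 4 MLN arrays did not overlap the 4 PLN arrays for 4 of 9 members, 3 lower and 1 higher, against 2.22% of all features in either direction. Anxa1, kept through the PLN arrays alone, is among the 3 lower members, so nothing is read from this count either. In these bulk samples, fewer cells of a type and less RNA per cell cannot be told apart.

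S100a4, a calcium-binding protein tied to cell motility, had levels of -0.07 in uMT, -0.04 in AID KO, and -0.24 and 0.24 in WT MLN cells, against 2.16 in uMT, 2.01 in AID KO, and 1.79 and 1.99 in WT PLN cells. Every MLN array was thus below every PLN array. In MLN both knockout arrays lay between the 2 WT arrays, and in PLN both lay above them. The difference corresponds to a level 4.04-fold higher in PLN, and 53 of 25738 features (0.206%) had a larger absolute difference. Within a slide, the WT MLN array was below the WT PLN array by differences of -2.03 and -1.75, and on different slides the uMT and AID KO differences were -2.23 and -2.05. The 2 WT MLN arrays differed from each other by 0.48 and the 2 WT PLN arrays by 0.19. The adjusted p was 0.000217 with normexp background correction, 0.0293 in the authors' series matrix and 0.0171 among probes well above background on all 12 arrays. S100a4 did not pass after quantile normalization, without the filter on dim probes, without the slide term or with averaged probes. Nor did it pass when any one total-cell array was left out. The call therefore depends on these settings, while the sign did not change in them.

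S100a6, which encodes calcyclin and lies close to S100a4 with S100a5 between them, had levels of 1.09 in uMT, 1.06 in AID KO, and 0.83 and 0.89 in WT MLN cells, against 1.66 in uMT, 1.67 in AID KO, and 1.59 and 1.51 in WT PLN cells. The groups did not overlap, and the spread within each node was under the gap between them. The level was 1.56-fold higher in PLN, and 3.12% of features had a larger absolute difference. Its adjusted p was 0.0216 with normexp and 0.0176 among probes well above background on all 12 arrays. S100a6 passed under no other setting run.

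Anxa1 was measured by a dim probe printed as 10 spots. Its levels were -5.94 in uMT, -5.76 in AID KO, and -5.78 and -5.77 in WT MLN cells, against -3.81 in uMT, -4.31 in AID KO, and -4.51 and -4.50 in WT PLN cells. On the MLN arrays 0 of its spots were well above background, while on the PLN arrays, outlier spots aside, 10 of 10 spots were so in uMT, 5 of 10 in AID KO, and 5 of 8 and 7 of 10 in WT cells. The MLN value is therefore not well above background, and no fold is given because the lowest signal called well above background on the MLN arrays, between -4.62 and -3.94, leaves no fold above 1. The adjusted p of 0.0376 came with the naive arrays in the fit, and it was 0.103 with the 8 total-cell arrays alone, 0.0849 after quantile normalization, 0.105 without the filter on dim probes and 0.415 with normexp. The other Anxa1 probe was not well above background on any array.

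**Figure D2:**
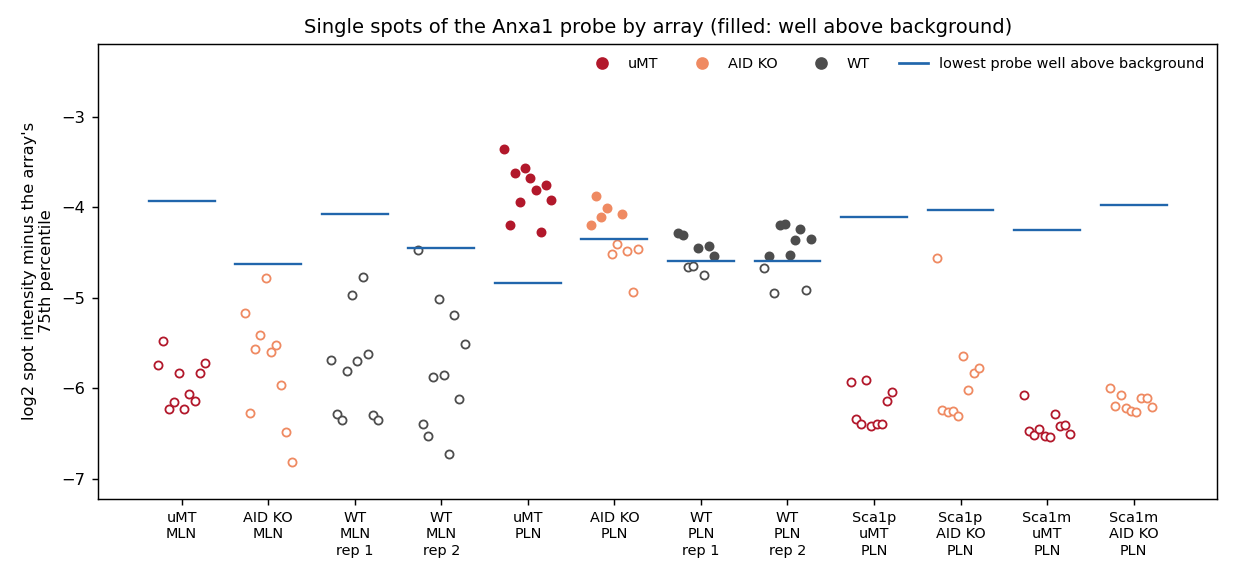
Single spots of the Anxa1 probe on each array, as log2 intensity minus the array's 75th percentile, without outlier spots. Filled points were well above background and blue bars mark the lowest probe called well above background on that array. Filled points occur only on the 4 PLN arrays of total cells, with 10, 5, 5 and 7 spots in uMT, AID KO and the 2 WT arrays.

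Lgals3, encoding galectin-3, ran the other way between the nodes. Its levels were -1.59 in uMT, -1.20 in AID KO, and -1.76 and -1.94 in WT MLN cells, against -2.46 in uMT, -2.04 in AID KO, and -2.53 and -2.49 in WT PLN cells. All 4 MLN arrays were above all 4 PLN arrays, by differences of 0.86 in uMT, 0.84 in AID KO, and 0.77 and 0.56 in WT pairs. The standard error of 0.51 comes from a fit that includes the naive arrays, where this probe varied from -6.35 to -3.84. The dimmer Lgals3 probe gave 0.51 ± 0.10 (adjusted p = 0.223).

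The remaining 5 members had smaller fitted differences between nodes by their brightest probes, and each missed the threshold. The scaffold gene Ahnak had a difference of -0.37 ± 0.15 (adjusted p = 0.559), Anxa2 of -0.25 ± 0.10 (adjusted p = 0.546) and Lgals1 of -0.22 ± 0.11 (adjusted p = 0.630). S100a11 had a difference of 0.24 ± 0.10 (adjusted p = 0.558). Single pairs of the same genotype varied. Ahnak differed by -0.91 in AID KO and 0.21 in uMT, and S100a11 by -0.32 and 0.93, each across slides. S100a10 was at 5.17 in uMT, 4.61 in AID KO, and 4.20 and 4.41 in WT MLN cells, against 4.75 in uMT, 4.73 in AID KO, and 4.51 and 4.39 in WT PLN cells. Its difference was 0.01 with a 95% interval of -0.31 to 0.32. The S100a4 difference of -2.02 lies outside that interval, although the 2 genes were not tested against each other.

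**Figure D3:**
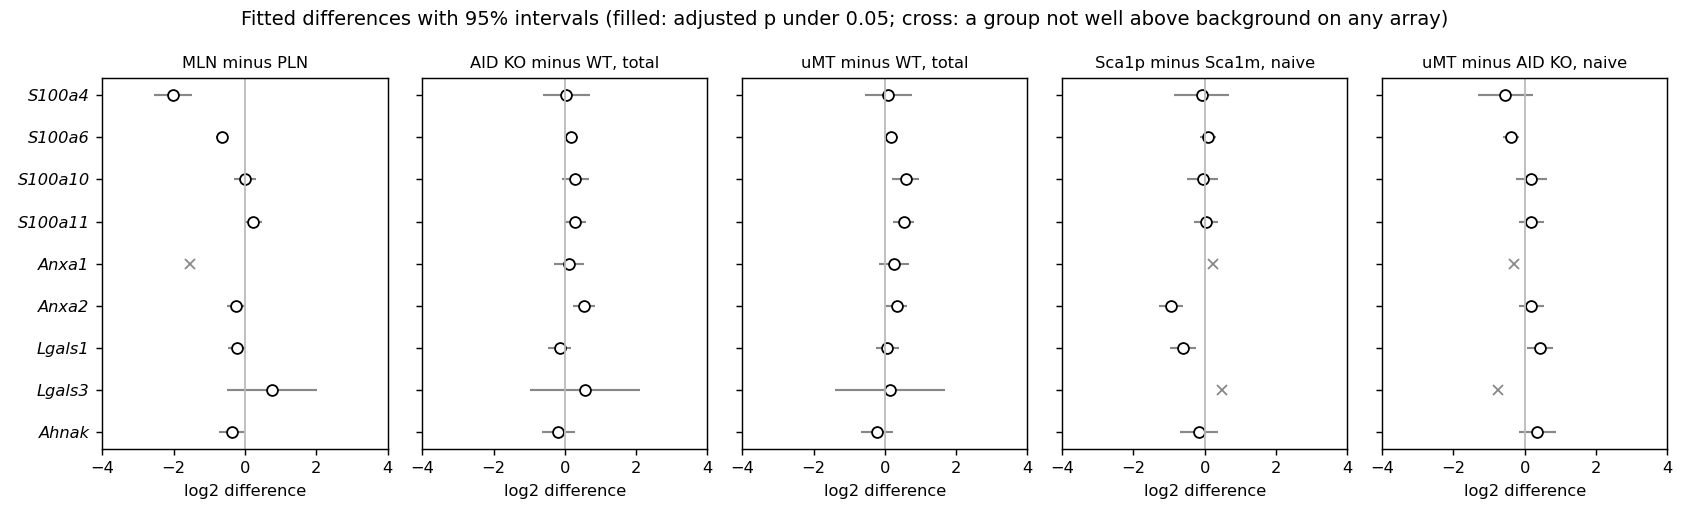
Fitted log2 difference of each gene (rows) in 5 comparisons (panels) with 95% intervals from limma. Open circles missed an adjusted p of 0.05, and grey crosses without an interval mark differences whose size was not measured because a group was not well above background on any of its arrays. In MLN minus PLN the intervals of S100a4 and S100a6 lie below 0 and Anxa1 is a cross. In AID KO minus WT and uMT minus WT, Anxa1 is drawn with an interval. Its MLN values were not well above background, so those sizes were not measured either.

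Related genes were read from lists chosen with earlier results known. Of the other S100 genes, 7 of 13 were tested and 0 passed between nodes, with a median difference of -0.03. Of the other annexins, 7 of 10 were tested and 0 passed (median -0.03), and of the other galectins, 5 of 8 were tested and 0 passed (median 0.02). Of binding partners and receptors, 13 of 16 were tested and 0 passed (median -0.11). Of memory-linked genes, 26 of 27 were tested and 0 passed (median -0.05), and of naive-linked genes all 14 were tested and 0 passed (median -0.06). The median of all features was -0.01, against -0.25 for the 9 members.

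Among the listed genes, Ccr2, a chemokine receptor of memory cells, had a mean level of -2.85 ± 0.41 in MLN and -2.03 ± 0.26 in PLN cells (SD, n = 4 each), a difference of -0.82 ± 0.11 (adjusted p = 0.0869). Cd44, a hyaluronan receptor that marks antigen-experienced T cells, differed by -0.40 ± 0.09 (adjusted p = 0.275), lower in MLN in all 4 pairs of the same genotype (range -0.68 to -0.23). Tbx21, a T-box factor gene of effector and memory cells, ran the other way, at 2.73 to 2.91 in MLN against 2.30 to 2.39 in PLN, a difference of 0.47 ± 0.06 (adjusted p = 0.0907), as did Prdm1 at 0.44 ± 0.10 (adjusted p = 0.256), both named after their values were seen. Of the 26 memory-linked genes tested, 10 had a higher fitted level in MLN and 16 a lower one. Fasl, the Fas ligand gene, differed by -0.60 ± 0.18 (adjusted p = 0.390). Igfbp4 and Ccr9, both listed as naive-linked, differed by 0.68 ± 0.11 and 0.43 ± 0.08 (adjusted p = 0.145 and 0.206), and Foxp1, of the same list, by -0.28 ± 0.08 (adjusted p = 0.368). Klrg1, a receptor of terminal effector cells, was well above background on 2 of 4 MLN arrays, at -1.57 in 1 WT and -4.38 in the AID KO array, against 0 of 4 in PLN (adjusted p = 0.553). The other WT MLN array was at -6.55 and not well above background, so no fold is given.

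One marker of another cell type moved with the node. Hba-a1, an alpha-globin gene and the only 1 of 5 erythroid markers tested, was at 2.64 in uMT, 0.34 in AID KO, and 0.99 and 1.56 in WT MLN cells, against -0.18 in uMT, -1.88 in AID KO, and -3.16 and -1.65 in WT PLN cells. Its difference was 3.10 ± 0.39 (adjusted p = 0.082), and its part in the Anxa1, S100a4 and S100a6 differences was not tested. The erythroid genes Hbb-b1 and Alas2 were well above background on 0 arrays, and no probe was named Hbb-bs. Between 50.1% and 54.0% of spots were well above background on the slide that held uMT MLN, AID KO PLN and 1 WT array of each node, and 54.9% to 56.8% on the other total-cell slide. Each slide held 2 MLN and 2 PLN arrays.

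The next comparisons asked how total cells of AID KO and uMT mice differed from WT. In AID KO cells 0 of 9 members passed, while 0.901% of all features did, and in uMT cells 0 of 9 passed, while 0.0350% of all features did. At an unadjusted p under 0.05 there were 3734 features for AID KO and 4733 for uMT. Both knockouts share their WT arrays, so the differences are given side by side. The members with an unadjusted p under 0.05 were Anxa2 and S100a11 for AID KO, and S100a10, S100a11 and Anxa2 for uMT.

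Anxa2, the partner of S100a10 at membranes, was at 2.44 in uMT, 2.72 in AID KO, and 2.14 and 2.30 in WT MLN cells, and at 2.84 in uMT, 2.97 in AID KO, and 2.48 and 2.30 in WT PLN cells. Both knockout arrays of a node were above both WT arrays of that node. The difference was 0.54 ± 0.12 in AID KO (adjusted p = 0.121) and 0.33 ± 0.12 in uMT (adjusted p = 0.241). A dimmer Anxa2 probe gave 0.40 ± 0.85 and 0.03 ± 0.85. These standard errors come from a fit that includes the naive arrays, where this probe varied from -3.85 to 1.94. On this probe both AID KO arrays were also above both WT arrays of their node. In MLN the uMT array, at -2.38, was below both WT arrays (-2.14 and -2.36). In PLN the uMT array lay between the WT arrays, at -1.87 against -1.86 and -2.25. The order of uMT and WT for Anxa2 therefore depends on the probe.

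S100a10, the ligand of annexin A2, differed by 0.58 ± 0.16 in uMT (adjusted p = 0.178) and by 0.29 ± 0.16 in AID KO (adjusted p = 0.485), and its second probe gave 0.57 ± 0.18 and 0.34 ± 0.18. Both knockout arrays of each node were above both WT arrays there, and the highest total-cell level was 5.17 on the uMT MLN array. For S100a10 as for Anxa2, the share of all features with this order was not computed. S100a11, a further S100 gene close to S100a10, was at 3.37 in uMT, 2.51 in AID KO, and 2.59 and 2.32 in WT MLN cells, and at 2.44 in uMT, 2.83 in AID KO, and 2.48 and 2.09 in WT PLN cells. In MLN, AID KO lay between the 2 WT arrays, and in PLN, uMT did. Its differences were 0.54 ± 0.12 in uMT (adjusted p = 0.145) and 0.30 ± 0.12 in AID KO (adjusted p = 0.340).

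The 4 galectin and S100 genes S100a4, S100a6, Lgals1 and Lgals3 had differences of 0.10, 0.17, 0.08 and 0.16 in uMT and 0.04, 0.16, -0.14 and 0.56 in AID KO. For S100a4 the 95% interval of the uMT difference was -0.57 to 0.76, and of the AID KO difference -0.62 to 0.71. Ahnak differed by -0.23 in uMT and -0.18 in AID KO by its brightest probe. Its other probes gave 0.63 ± 0.13 and 0.07 ± 0.47 in uMT, and 0.14 ± 0.13 and 0.23 ± 0.47 in AID KO. The sign for Ahnak therefore depends on the probe. For Anxa1, measured in PLN alone, no difference over both nodes is given. Among the listed genes Ifng, encoding interferon gamma, fell by 1.47 ± 0.16 in AID KO cells (adjusted p = 0.0241), and its adjusted p was 0.0745 without the filter on dim probes and 0.173 with a block that pairs each knockout array with the WT array of its node and slide.

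The knockouts were also set against each other. In total cells 0 of 9 members passed in uMT against AID KO, while 0.354% of all features did, and the members' differences lay between -0.41 (Lgals3) and 0.29 (S100a10). Crip1, a LIM-domain gene on the memory list, fell in uMT by 1.104 ± 0.124 (adjusted p = 0.0424). It was at 5.96 and 5.84 in uMT cells, against 6.99 and 7.02 in AID KO cells and 6.69 to 6.98 in WT cells. Its adjusted p was 0.0587 without the slide term, 0.0825 with the 8 total-cell arrays alone, 0.138 without the filter on dim probes and 0.553 with the block of arrays paired by node and slide.

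Whether the knockouts differed from WT by another amount in MLN than in PLN was tested as an interaction. Of the 9 members 0 passed, as of all features (0%; 1114 features had an unadjusted p under 0.05). The lowest unadjusted p among members was that of Anxa1, at 0.0481 (adjusted p = 0.999), and no size is given because its MLN levels were not well above background. Between PLN arrays, uMT was above WT of its slide by 0.68 and AID KO by 0.20.

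In naive PLN cells the comparison was between the Sca1p and Sca1m fractions. Of 9 members 0 passed, while 0.0155% of all features did (4 of 25737), and 2161 features had an unadjusted p under 0.05. Ly6a itself, the gene behind the sort, differed by 3.67 ± 0.31 (adjusted p = 0.0711), so the threshold is hard to reach here. Anxa2 and Lgals1 were the members with an unadjusted p under 0.05.

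Anxa2 was at 0.71 in uMT and 0.70 in AID KO Sca1p cells, against 1.83 in uMT and 1.47 in AID KO Sca1m cells. Both Sca1p arrays were below both Sca1m arrays, and the difference was -0.95 ± 0.14 (adjusted p = 0.145). The dimmer Anxa2 probe stood at 1.94 on the AID KO Sca1m array and between -3.85 and -2.68 on the other naive arrays, so this probe rests on 1 array. Lgals1, encoding galectin-1, was at 3.31 in uMT and 2.99 in AID KO Sca1p cells, against 4.03 in uMT and 3.50 in AID KO Sca1m cells. The fitted difference was -0.62 ± 0.15 (adjusted p = 0.343) and its Sca1p and Sca1m arrays did not overlap. Each fraction had few arrays, and the share of all features without overlap was not computed. Nothing is therefore read from the lack of overlap for Anxa2 or Lgals1.

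Of the other 7 members, Anxa1 was well above background on 0 and Lgals3 on 1 of the 4 naive arrays, and the remaining 5 had Sca1p minus Sca1m differences between -0.16 (Ahnak) and 0.08 (S100a6). For S100a6 the 95% interval was -0.15 to 0.32 and for S100a10 it was -0.50 to 0.38. On the memory-linked list, 1 of 26 tested genes passed: Cxcr3, a chemokine receptor, was at 2.24 in uMT and 2.41 in AID KO Sca1p cells, against 0.22 in uMT and 0.15 in AID KO Sca1m cells, and rose by 2.14 ± 0.11 (adjusted p = 0.0238). Its adjusted p was 0.0917 without the filter on dim probes and 1.00 with the 4 naive arrays alone.

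Naive cells of uMT mice were set against those of AID KO mice. Of 9 members 0 passed, while 0.346% of all features did, and 2282 features had an unadjusted p under 0.05. S100a6 was at -3.65 and -3.70 in uMT and -3.23 and -3.34 in AID KO Sca1p and Sca1m cells. The lowest signals called well above background on the naive arrays, between -4.25 and -3.98, were not far below these levels. The S100a6 difference was -0.39 ± 0.09 (adjusted p = 0.256). Lgals1 differed by 0.42 ± 0.15 (adjusted p = 0.474), higher in uMT within both fractions. Crip1 fell by 1.32 ± 0.12 in naive uMT cells (adjusted p = 0.0255), on arrays other than those of total cells. Its adjusted p was 0.0658 without the filter on dim probes and 0.499 with the 4 naive arrays alone.

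Whether the Sca1p minus Sca1m difference depended on genotype was tested in naive cells. Of 9 members 1 passed, Lgals3, while 0.0860% of all features did (22 of 25596). With the interaction the 4 naive arrays are fitted exactly, so the spread behind these p-values comes wholly from the total-cell arrays, and each single naive array is assumed to vary like them. Lgals3 was at -6.35 in uMT and -3.84 in AID KO Sca1p cells, against -5.08 in uMT and -6.07 in AID KO Sca1m cells. Of these 4 levels, that of AID KO Sca1p cells was the one well above background, and the other 3 have no measured order. The fitted interaction of -3.50 ± 0.24 (adjusted p = 0.0438) is therefore not a measured size, and nothing is read from the count. The dimmer Lgals3 probe, printed as 10 spots and well above background on 2 of the 4 naive arrays, gave -0.39 ± 0.24 (adjusted p = 0.688), and 0 members passed when probes were averaged. S100a4 was at -3.87 in uMT and -2.66 in AID KO Sca1p cells, against -3.11 in uMT and -3.25 in AID KO Sca1m cells, with an interaction of -1.35 ± 0.31 (adjusted p = 0.225). Its uMT Sca1p level was close to the lowest signal called well above background on that array, -4.11.

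Naive cells stood on a slide of their own and were gated on low CD44, so slide and gate cannot be told apart and no test was made. As a description, naive PLN cells were set beside total PLN cells of the same genotype. S100a4 stood at a difference of -5.65 in uMT and -4.96 in AID KO, and S100a6 at -5.34 and -4.96. Only 10 of 25595 features were lower by more than S100a4, and 14 by more than S100a6. Their naive levels were -3.87 to -2.66 for S100a4 and -3.70 to -3.23 for S100a6. The lowest signals called well above background on the naive arrays were not far below, between -4.25 and -3.98, so these sizes are imprecise. By its brightest probe, Anxa2 differed by -1.72 on average, beside -2.10 for Cd44, the gene behind the gate, and -0.01 for the median feature. Lgals3 was not well above background on 3 of the 4 naive arrays and Anxa1 on all 4, so no difference is given for them. The dimmer Lgals3 probe was at -4.37 to -3.90 on the naive arrays, against -3.62 in uMT and -3.63 in AID KO total PLN cells. S100a10, by contrast, differed by 0.24, S100a11 by -0.33, Lgals1 by -0.27 and Ahnak by -0.48 on average. In each case at least 33.4% of features showed a larger absolute difference. The knockouts differed here: S100a11 was at -0.62 in AID KO and -0.04 in uMT, and Ahnak at -0.96 and -0.00068. A dimmer Ahnak probe was higher in naive cells, at 2.65 to 3.09, against 1.52 in AID KO and 1.80 in uMT total PLN cells. The remaining Ahnak probe was lower in naive cells.

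The order of levels across conditions follows from these values. S100a4 and S100a6 were highest in total PLN cells, next in total MLN cells and lowest in naive cells, with no overlap between the arrays of these groups. The share of all features with this order was not computed, and naive cells stood on a slide of their own. Nothing is therefore read from this lack of overlap. For S100a6 the gap between the nodes was under the spread among naive arrays. Within total PLN cells the 4 arrays of S100a6 lay within 1.51 to 1.67, and 0 of its genotype differences passed. For Anxa1, MLN and naive cells were both not well above background and have no order between them. By its brightest probe, Anxa2 was highest in total cells and lower in Sca1m and then Sca1p naive cells, while the nodes overlapped. The dimmer Anxa2 probe was at 1.94 on the AID KO Sca1m array, above all total-cell arrays (-2.38 to -1.51). The Anxa2 order therefore depends on the probe. For S100a10, S100a11, Lgals1 and Ahnak, total and naive ranges overlapped.

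Across arrays with each slide's mean removed, the members fell into few shared patterns. Over the 8 total-cell arrays the correlation was 0.97 between S100a4 and S100a6, 0.98 between S100a4 and Anxa1, and 0.95 between S100a6 and Anxa1. S100a10 and S100a11 correlated at 0.88, and S100a10 and S100a4 at 0.04. Lgals3 correlated with S100a4 at -0.85. These points share 2 slides and 2 nodes, so the first values mainly restate the node difference, the MLN values of Anxa1 were not well above background, and no p is given.

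**Figure D4:**
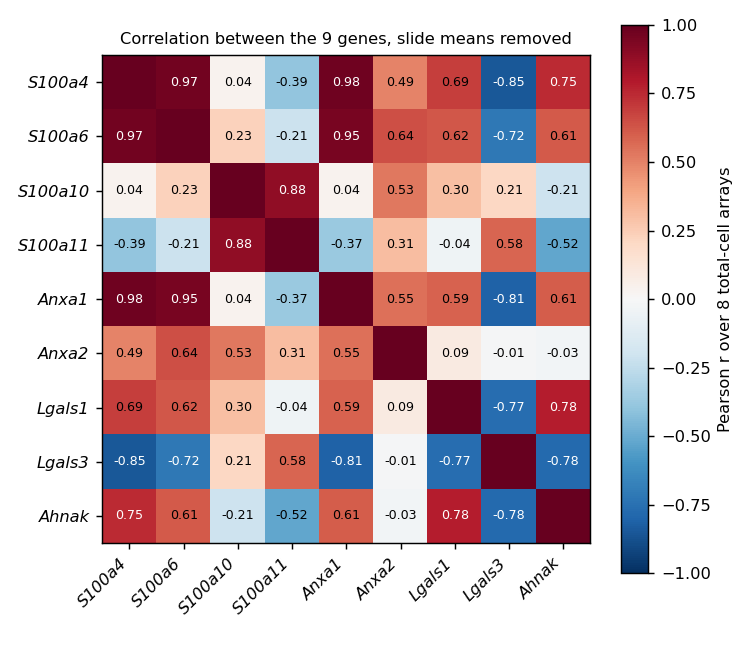
Pearson correlation between the levels of each pair of the 9 genes over the 8 total-cell arrays, after the mean of each slide was removed. S100a4, S100a6 and Anxa1 correlate at 0.95 to 0.98 with each other, S100a10 with S100a11 at 0.88, and Lgals3 with S100a4 at -0.85.

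Over all 12 arrays, also with slide means removed, the named genes most like each member were sought among 11487 genes, or 11488 for Anxa1 and Lgals3. For S100a4 they were Diaph1, an actin-nucleating formin, at r = 0.98, the actin-capping gene Capg at 0.94 and Filip1l at 0.94. Their MLN minus PLN differences were -0.17 ± 0.07 for Diaph1 (adjusted p = 0.538), -0.48 ± 0.10 for Capg (adjusted p = 0.237) and -0.42 ± 0.08 for Filip1l (adjusted p = 0.200). For S100a6 they were S100a4 itself at 0.92, Exoc2 at 0.92 and Akirin1 at 0.92. For Anxa1 they were S100a4 at 0.94, Niban2 at 0.94 and Wipf1 at 0.94. Anxa1 was well above background on only 4 of the 12 arrays, so these values rest largely on levels that were not. Niban2 had a difference of -1.16 ± 0.13 between nodes (adjusted p = 0.0647), and Wipf1 of -0.25 ± 0.07 (adjusted p = 0.379).

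For Anxa2 the most alike were Ndrg1 at 0.97, the glycolytic gene Aldoc at 0.97 and Aldh3b1 at 0.96. For S100a10 they were Cenpw at 0.99, the transcription factor gene Ets1 at 0.99 and 5430402O13Rik at 0.98, and for S100a11 they were Ttc5, Dusp19 and Gabarap, each at 0.98. For Lgals1 they were Cd99 at 0.89, Mcm7 at 0.89 and Nup93 at 0.88, and for Lgals3 they were Gm2016, Parl and Acat3 at 0.92, 0.90 and 0.89. Among naive arrays Lgals3 was well above background on AID KO Sca1p alone, so its values rest in part on levels that were not. For Ahnak they were Gpatch8, Akap13 and Emb at 0.95, 0.91 and 0.90. These are the highest of many correlations over few arrays and are a description.

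Probes of the same member did not always move alike. The 2 probes of S100a10 gave 0.01 and -0.03 between nodes. The 3 probes of Ahnak gave -0.37, 0.17 and -0.55, so its node value depends on the probe.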

How the data were processed

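Expression was measured in 12 CD8+ T cell samples on Agilent 1-colour arrays. The authors extracted spot intensity values with Agilent Feature Extraction 11.0.1.1, per the file headers and the submitters' processing notes. These are corrected for background and carry no scaling across arrays. Among other values deposited are 0 or 1 flags for detection above background, saturation and outlying spots. The authors' series matrix holds log2 values of 28384 probes whose sorted values match within each slide, and it served as an alternative. Each slide there has its own column median (9.47, 8.59 and 8.99), so scale differs by slide and the centring is unstated.

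Log2 processed intensities were shifted to a common 75th percentile. Outlier spots (61 to 342 per array) were left out and spots of a probe averaged. A probe counted as well above background on an array where at least 50% of its spots did, and was kept if so on 2 arrays. Of 56605 probes, 32994 had 1 symbol, 0 several and 23611 none, named by accession through RefSeq GRCm38.p6. Each gene was read from its brightest kept probe. The array's coordinates belong to another build and are not used.

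A single limma 3.58.1 model (R 4.3.3) covered the 12 arrays. Its terms were node, slide and each knockout for total cells, and genotype and Sca1p for naive cells, which had an intercept of their own. It left 4 residual degrees of freedom, or 3 with an interaction. Two-sided p-values were adjusted by Benjamini-Hochberg across the features, with a threshold of 0.05, and the model was tested on simulated data. Members, lists and tests were chosen with earlier results of these data known. The named genes are the members, Ly6a, the 3 genes most like each member, list genes past the threshold and, between nodes, genes among the 3 largest differences of a list with an unadjusted p under 0.05. That rule was narrowed after values were seen, from up to 3 genes of every list in every comparison, as was the set of member differences followed through the alternatives (those at an unadjusted p under 0.05). Hba-a1 was added after its values were seen. Some listed marker genes are not reported here.

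Alternatives were normexp (offset 50), quantile normalization, the series matrix, other detection filters, no slide term, a block of each knockout array with the WT array of its node and slide, averaged probes, fewer arrays, and leaving out each array. Normexp was planned on the mean signal and was run on the median signal, the column at hand.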

Additional observations from a re-analysis of the deposited data

Results flagged for a closer look

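For Lgals3 the fitted interaction of Sca1p with genotype in naive cells was -3.50 ± 0.24 on the log2 scale (limma, adjusted p = 0.0438). Each of the 4 groups was 1 array and the spread came from the total-cell arrays. Of these 4 arrays 1 was well above background, AID KO Sca1p at -3.84, so neither the size nor the direction within uMT cells was measured, and the dimmer Lgals3 probe gave -0.39 ± 0.24 (adjusted p = 0.688).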

How the results depend on the processing

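Counts below are members past the threshold. Between nodes 1 member passed, against 2 with normexp (S100a4 and S100a6), 2 of the 7 members tested among probes well above background on all 12 arrays (the same genes; Anxa1 and Lgals3 are removed by that filter), 0 after quantile normalization and 0 without the filter on dim probes. Leaving out 1 array gave 0 to 1. It was 0 without any one of the 4 WT arrays, AID KO MLN or AID KO PLN, 1 without uMT MLN or uMT PLN, and without any naive array the 1 member was S100a4 in place of Anxa1. The Sca1p by genotype interaction had 1 member (Lgals3), against 0 with normexp, no slide term or averaged probes, and 0 to 0 without 1 total-cell array. It could not be estimated without a naive array. It was also 0 of the 7 members tested among probes well above background on all 12 arrays and 0 of 6 in the series matrix, settings that do not test Lgals3. In naive cells 0 members passed for Sca1p versus Sca1m and for uMT versus AID KO, with 0 to 1 for each when 1 array was left out. Lgals3 was that member each time. It came without uMT Sca1p or uMT Sca1m for Sca1p versus Sca1m, and without AID KO Sca1m or uMT Sca1m for uMT versus AID KO. Such fits leave 1 naive array in a group. Among naive arrays the Lgals3 probe was well above background on AID KO Sca1p alone, so nothing is read from these calls. The other comparisons kept 0 members in every alternative run. With the replicate block, which pairs each knockout array with the WT array of its node and slide, 0 members passed in each comparison of total-cell genotypes. The block could not be fitted for nodes or naive cells, and the labels name the paired control only for PLN. Of 16 member differences at an unadjusted p under 0.05, 1 turned its sign, Anxa1 in the knockout by node interaction with normexp (0.0030), and of the other 56, 25 turned theirs under some alternative. The cause was not tested. Over all features, the node count of 31 was 16 to 74 under the other settings and 2 to 22 without 1 array, and the AID KO count of 232 was 14 to 586 and 1 to 159. Ifng passed in AID KO cells but not with the block (adjusted p = 0.173), without the filter (0.0745), or without 1 of the 4 WT or 2 AID KO arrays (0.0823 to 0.352). Without any one of the 12 arrays Crip1 missed the threshold between total uMT and AID KO cells (adjusted p 0.0775 to 0.499). Cxcr3 missed it between Sca1p and Sca1m cells without any one total-cell array or either AID KO naive array (0.0625 to 0.136), but not without either uMT naive array. In naive cells Crip1 missed it without any one array (0.0504 to 0.0898) other than uMT MLN or uMT PLN.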
